A study of Mus musculus with 4 samples.

Results

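The genes described here encode the proteins of the cytosolic ribosome and the factors that start and carry out translation. They were chosen by symbol among the protein-coding genes of the GENCODE mouse annotation: Rpl or Rps followed by a digit, Rplp0, Rplp1, Rplp2 and Rpsa, Eif or Eef followed by a digit, and Pabpc1, with the Rps6k kinases and pseudogene symbols left out. The rule used no measured value and found 155 of 21951 protein-coding genes. These were 52 genes of 60S proteins, 33 of 40S proteins and 55 of initiation factors and of their kinases and binding proteins. Another 13 had Eef symbols and are called elongation factors below. They include the kinase gene Eef2k and the methyltransferase genes Eef1akmt1 to Eef1akmt4 and Eef2kmt. The rest were Pabpc1 and Rps19bp1. Rps19bp1 fits the rule by its symbol and encodes a protein that binds a ribosomal protein. In all, 563 of 86106 clusters of the Fmr1 knockout-labelled library, 292 of 46860 clusters of the wild-type library and 292 of 46862 regions of the authors' table for the series had their midpoint in such a gene on its strand.

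The series profiled RNA bound by AGO2, the Argonaute protein that carries miRNAs, in mouse whole brain (strain C57BL/6) at postnatal day 0. Brains labelled FMR1 ko, with no allele given, were set against wild-type brains. RNA was crosslinked to protein and immunoprecipitated with the anti-AGO2 antibody EAG009 (eCLIP), and each genotype had 1 AGO2 immunoprecipitate (IP) and 1 input library. How many animals each library drew on is not given in the sources used here. Comparisons of the genotypes below are thus comparisons of 2 libraries, without a replicate check, and no test across libraries was possible.

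Ribosomal proteins form the large (60S) and small (40S) subunits around ribosomal RNA. Initiation factors bring the small subunit to the capped mRNA, with the eIF4 group at the cap, eIF3 on the small subunit and eIF2 carrying the initiator tRNA, and elongation factors then deliver tRNAs and move the ribosome along. AGO2 is guided by pairing of a miRNA seed, the bases near the 5′ end of the miRNA, mostly with the 3′ untranslated region (UTR) of mRNAs. FMRP, the product of Fmr1, is an RNA-binding protein known for its effects on translation in neurons. Introns of many ribosomal protein and translation factor genes hold small nucleolar RNAs (snoRNAs), which guide the modification of ribosomal RNA.

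The sequences below show where the strongest AGO2 peaks on these mRNAs lay and which seeds they could pair with. The mature miRNAs are those of RefSeq (GRCm38.p6), with seed bases 2 to 8 in capitals.
let-7a: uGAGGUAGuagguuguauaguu
miR-16: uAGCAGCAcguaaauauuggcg
miR-128: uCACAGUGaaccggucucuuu
In the mRNA stretches that follow, each read from mm10 on the strand of the gene, capitals mark the match to the seed. The first is the let-7 site in the 3′ UTR of Eif4g2, minus strand, chr7:111072197-111072226, which lay in the 3′ UTR peak of highest -log10 p in both libraries.
Eif4g2: ttgcctgtatttCTACCTCtagtaatgggc
The site in the 5′ UTR of Rps13, minus strand, chr7:116334128-116334157, matches the same let-7 bases.
Rps13: ctgtgccgtttcCTACCTCgttctctcttt
The 3′ UTR site of Eif2b2, plus strand, chr12:85226196-85226225, is a miR-15/16 match of 8 bases with the closing A, and lay in a peak of the wild-type library alone.
Eif2b2: agacacagcatTGCTGCTAcagtggggagg
The 3′ UTR of Eif1ad, plus strand, chr19:5370404-5370433, held a miR-128 match in the peaks of both libraries.
Eif1ad: tgcctcgctctaCACTGTGccttactgggt
The coding sequence of Rpl14, plus strand, held the peak with most reads. Its miR-15/16 matches lay at chr9:120574125-120574154 and, in a run of GCT repeats, at chr9:120574191-120574220. In the repeat, capitals mark the first match only, and the same 8 bases as in Eif2b2 follow further on.
Rpl14 first match: aaacttcaaagaGCTGCTAtcctgaaagct
Rpl14 repeat: gcggcggctgcaGCTGCTgctgctgctaaa
A like repeat, again with the first match in capitals, lay under a coding peak of Pabpc1, minus strand, chr15:36598072-36598101.
Pabpc1: ccacgtcctgcaGCTGCTgctgctgcagcc

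The values are read densities. The authors scored each cluster of IP reads against the input of the same genotype as a log2 ratio and a -log10 p, scaled to library totals. The totals are not in the files, but the scores fix their ratios: depth of input over IP came to 1.918 in the knockout-labelled pair and 6.337 in the wild-type pair, and the depth of the knockout-labelled IP over the wild-type IP to 2.278. Read numbers below were recovered from the scores, where an input or denominator of 0 reads had been counted as 1. The term enriched peak stands for a cluster with both scores, -log10 p and log2, at 3 or above. Against 1 input read this took at least 9 IP reads in the knockout-labelled library and 5 in wild type, so the 2 libraries did not have the same power. All intervals given are Clopper-Pearson (exact binomial, 95%), and they cover the error of counting alone. They take clusters as separate, although many lie on the same gene and abutting ones can share reads, so they can be too narrow. Whether an interval holds a general share is a description and not a test. Fmr1 itself had 5 clusters in the knockout-labelled library (log2 -1.52 to 1.81) and 2 in wild type (1.18 and 4.66), which checks neither label, since the deleted part is not given. Markers of neurons were present in both IPs (9 of 9 genes with an exonic cluster in each, 2573 reads in the knockout-labelled IP and 1056 in wild type). Of 7 erythroid markers, 3 had clusters in the knockout-labelled IP (36 reads) and 2 in wild type (50 reads). Of the choroid plexus markers, Ttr alone had clusters (284 reads in the knockout-labelled IP and 153 in wild type), and of the liver markers Alb and Apoa2, 1 gave a cluster, in wild type (6 reads). Their part in the results below was not tested.

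Most genes of the set had an AGO2 cluster in an exon in at least 1 library. Exonic clusters, meaning those in coding sequence or UTRs, were found on 77 of the 155 genes in the knockout-labelled library and on 57 in wild type. Among all protein-coding genes the share with an exonic cluster was 38% in the knockout-labelled library and 30% in wild type. Both libraries had one on 48 genes and either library on 86. A further 24 genes had clusters in introns or non-coding exons only, and 45 had none at all; in whole tissue, fewer cells of a type and less RNA per cell cannot be told apart. Initiation factors and their partners were covered more often, with an exonic cluster on 43 of 55 genes, than ribosomal proteins, with 34 of 85. Of the 13 Eef genes 7 had one. The 6 without were Eef1g, Eef1e1 and the methyltransferase genes Eef1akmt1, Eef1akmt3, Eef1akmt4 and Eef2kmt. The mRNAs of the set differ in length. The median annotated 3′ UTR was 92 bases and the median coding sequence 456 bases for the ribosomal proteins, and 543 and 1102.5 bases for the other members, against 732 and 1173 bases over all protein-coding genes.

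The clusters were concentrated on a few long mRNAs. Eif4g3, Eif4g1, Eif3a, Eif5b and Eif4g2 held 136 of the 391 exonic clusters of the knockout-labelled library, with 40 on Eif4g3 alone. In wild type Eif4g2, Eif4g3, Eif4g1, Eif3a and Eef2 held 68 of 188, with 17 on Eif4g2. Eif4g1 encodes the scaffold of the cap-binding complex, Eif4g3 its close relative, Eif4g2 a relative that lacks the site for the cap-binding factor eIF4E, Eif3a the largest subunit of eIF3 and Eef2 the factor that moves the ribosome by a codon. Few of these clusters were enriched peaks. Eif3a had 24 exonic clusters in the knockout-labelled library, 14 of them below the input (log2 -1.56 to 1.59), and 11 in wild type (0.19 to 4.25), and none was an enriched peak. Eif4g3 had 40 in the knockout-labelled library (-1.87 to 2.75) and 16 in wild type (-0.07 to 4.25), again with no enriched peak.

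Over all members, a smaller share of exonic clusters met the limits for an enriched peak in wild type than over protein-coding genes in general. In the knockout-labelled library 9 of 391 clusters were enriched peaks, or 2.3% (interval 1.06 to 4.32), where the share over all protein-coding genes was 3.57%. In wild type it was 32 of 188, or 17% (11.9 to 23.2), against 27.5% over all. The interval of the first holds the share of all genes, and that of the second lies below it. Both take clusters as separate, although 68 of the 188 in wild type lay on 5 genes. The median log2 over input was 1.13 for the members and 1.52 for all protein-coding genes in the knockout-labelled library, and 2.93 for the members and 4.25 for all in wild type. Among clusters with recovered reads, those of the members had more input: a median of 4 input reads in either library, against 2 over all protein-coding genes. Clusters below their input made up 14.6% of those of the members and 11.2% over all protein-coding genes in the knockout-labelled library, and 0.532% of those of the members and 0.705% over all in wild type. Restricted to clusters of 10 or more IP reads, the enriched shares were 10.1% of 89 member clusters (4.73 to 18.3) and 25.6% over all genes in the knockout-labelled library, and 55.6% of 18 (30.8 to 78.5) and 76.4% in wild type. With this minimum the interval lay below the general share in the knockout-labelled library and held it in wild type. With limits of -log10 p 5 and log2 4, the wild-type share of 7.45% (4.13 to 12.2) also held the general share of 10.1%.

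By kind of exon, the wild-type share lay below that of other genes in coding sequence. There 14 of 145 coding clusters of the members were enriched, 9.66% (5.38 to 15.7), beside 21.2% over all protein-coding genes. Of their 3′ UTR clusters 13 of 24 were, 54.2% (32.8 to 74.4), beside 37.1%, an interval that holds the general share. Of the 13, 5 were on Eif4g2. In the knockout-labelled library 4 of 310 coding clusters (1.29%, 0.353 to 3.27, beside 1.65%) and 4 of 44 3′ UTR clusters (9.09%, 2.53 to 21.7, beside 8.98%) were enriched. In 5′ UTRs it was 1 of 37 in the knockout-labelled library (2.7%, 0.0684 to 14.2, beside 4.45%) and 5 of 19 in wild type (26.3%, 9.15 to 51.2, beside 30.8%). All of these intervals for the knockout-labelled library hold the general share. Its 4 enriched 3′ UTR clusters included the abutting Rps13 regions on the snoRNA gene Snord14a, described below. With member regions on snoRNA genes left out, 7 of 385 exonic clusters of that library were enriched (1.82%, 0.734 to 3.71).

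**Figure D1:**
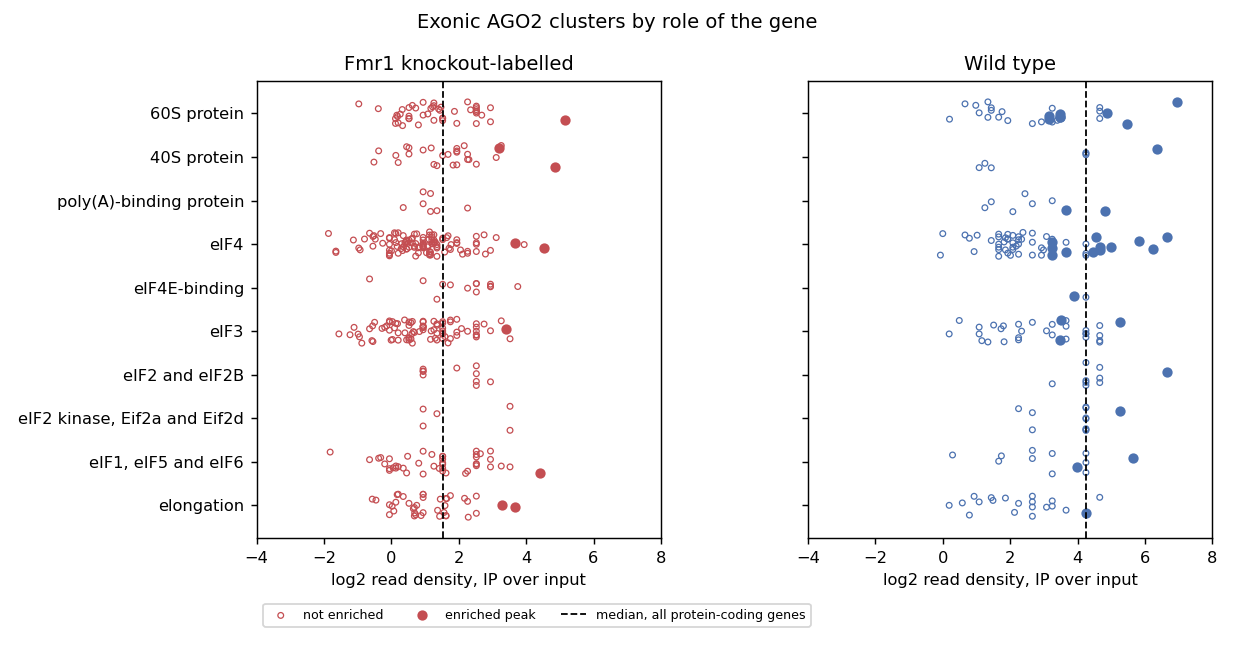
Log2 read density in the IP over its input for each exonic cluster, by role of the gene; the knockout-labelled library is on the left and wild type on the right. Each point is 1 cluster, filled where it was an enriched peak, and the dashed line is the median over all protein-coding genes (1.52 in the knockout-labelled library and 4.25 in wild type). Most clusters lie left of the line. In wild type 12 of the 60 eIF4 points are filled (20%, interval 10.8 to 32.3), beside 17% for all members. Over all protein-coding genes it was 27.5%.

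Enriched exonic peaks were found on 8 of the 77 members with an exonic cluster in the knockout-labelled library. In wild type they were found on 21 of 57. Of all protein-coding genes with an exonic cluster, 13.6% had such a peak in the knockout-labelled library and 50.5% in wild type. Both libraries had one on 7 genes, namely Eef1b2, Eif1ad, Eif3c, Eif4g1, Eif4g2, Rpl14 and Rps13. The knockout-labelled peaks of Rps13 lay on the snoRNA gene Snord14a. With regions on snoRNA genes left out, the knockout-labelled library had an enriched exonic peak on 7 members in place of 8. Eef1a1 had one in the knockout-labelled library alone, and 14 genes in wild type alone. Among all protein-coding genes, 1138 had such a peak in the knockout-labelled library and 3322 in wild type. How many of those were shared is not given here. With the same number of peaks taken per library, the wild-type count of members was 8, as in the knockout-labelled library. On genes with a peak in both libraries, the peaks did not always lie at the same place. Of the 9 peaks of the knockout-labelled library 4 overlapped an enriched peak of wild type (44.4%, 13.7 to 78.8, beside 56.2% over all protein-coding genes), on Rpl14, Eif4g2, Eef1b2 and Eif1ad. Of the 32 wild-type peaks 5 overlapped one of the knockout-labelled library (15.6%, 5.28 to 32.8, beside 14.4%), and 21 overlapped any cluster of it (65.6%, 46.8 to 81.4, beside 48.1%).

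Among ribosomal proteins, 3 of 73 exonic clusters were enriched in the knockout-labelled library (4.11%, 0.856 to 11.5, beside 3.57% over all protein-coding genes). The 3 were the peak of Rpl14 and the abutting Rps13 regions on the snoRNA gene Snord14a. In wild type it was 9 of 34 (26.5%, 12.9 to 44.4, beside 27.5%). The enriched peaks lay on 6 genes in all: Rpl14, Rpl4, Rpl8, Rpl22 and Rpl32 of the large subunit and Rps13 of the small. Rpl14 carried the strongest peak of the whole set. It lay in the last coding exon, exon 6 of 6, at chr9:120574122-120574214 in the knockout-labelled library, with 111 IP reads against 6 input reads (log2 5.15, -log10 p 42.1). In wild type it was cut into abutting regions, chr9:120574125-120574191 with 136 against 7 (6.94, and a -log10 p at the upper end of the scale, 400) and chr9:120574192-120574218 with 14 against 3 (4.89). No other exonic cluster was called on Rpl14 in either library, and the 30 bases at the centres of these peaks occur nowhere else in mm10.

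Rpl4, also of the large subunit, had high reads in IP and input alike. Its coding cluster in exon 8 of 10 had 55 IP reads against 47 input reads in the knockout-labelled library (chr9:64177746-64177804, log2 1.17) and 41 against 29 in wild type (chr9:64177737-64177804, 3.16). The IP reads were the second highest among exonic regions of the set, and the input reads were high too. The other 7 exonic clusters of Rpl4 in the knockout-labelled library ranged from 0.12 to 1.87.

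Rps13 gave peaks of different kinds in the libraries. In the knockout-labelled library abutting regions at chr7:116333172-116333188 (15 IP reads against 1, log2 4.85) and chr7:116333189-116333243 (33 against 7, 3.18) were annotated as 3′ UTR in a transcript other than the one with the longest coding sequence, and lay on the snoRNA gene Snord14a. In wild type the peak was in the 5′ UTR, 13 against 1 at chr7:116334112-116334161 (6.36), on the let-7 match printed above. The knockout-labelled library also had a cluster at that place, with 9 against 2 (3.11) and a -log10 p of 2.76, just under the limit for a peak. Smaller peaks of wild type lay in the 3′ UTR of Rpl22 (7 against 1, 5.47) and in coding exons of Rpl8 (7 against 4, 3.47) and Rpl32 (7 against 4, 3.47). Rpl32 also had abutting 5′ UTR peaks there (7 against 4 and 7 against 5, 3.47 and 3.15). Stretches of Rpl32 occur elsewhere in the genome, so some of its reads could come from copies.

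Among the initiation factors and their partners, 4 of 271 exonic clusters were enriched in the knockout-labelled library (1.48%, 0.404 to 3.74, beside 3.57% over all protein-coding genes) and 20 of 126 in wild type (15.9%, 9.97 to 23.4, beside 27.5%). Eif4g2 had the 3′ UTR peak with most reads. In the knockout-labelled library it spanned bases 421 to 521 past the stop codon, with 48 IP reads against 4 input reads (chr7:111072174-111072274, log2 4.52). In wild type it spanned bases 458 to 526, with 32 against 2 (chr7:111072169-111072237, 6.66), and both peaks held the let-7 match. Wild type had 4 further enriched 3′ UTR peaks on Eif4g2, with 12 against 1 (6.25), 11 against 3 (4.54), 10 against 5 (3.66) and 6 against 4 (3.25), and a 5′ UTR peak with 8 against 2 (4.66). The other 3′ UTR cluster of the knockout-labelled library, across the stop codon, had 28 against 13 (2.05). The annotated 3′ UTR of Eif4g2 is 4945 bases long, and every one of these clusters lay in its first part, ending by base 554.

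**Figure D2:**
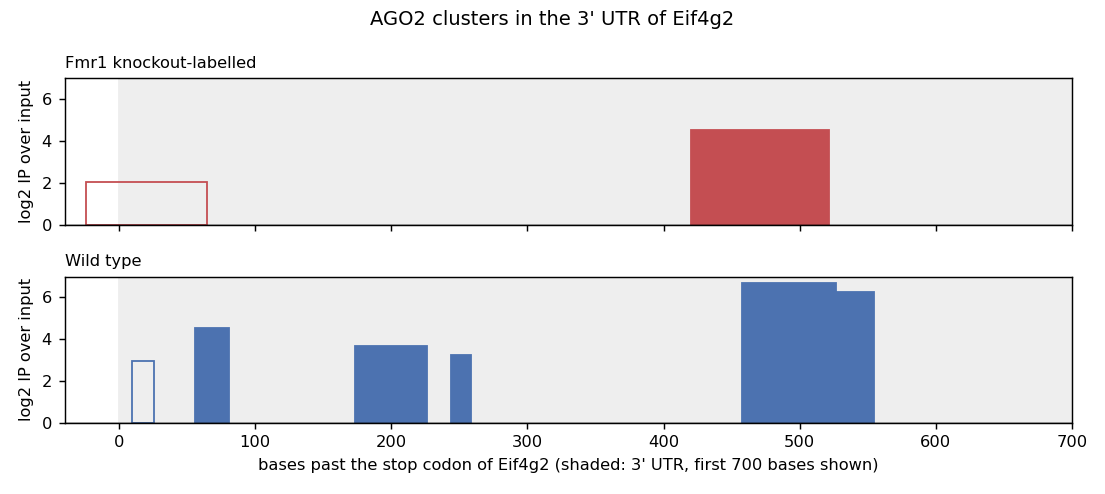
Clusters in the start of the 3′ UTR of Eif4g2, knockout-labelled library above and wild type below. Each bar is 1 cluster, as wide as the cluster and as high as its log2 over input, filled where it was an enriched peak; the grey field is 3′ UTR. A peak at about the same place stands in both libraries (4.52 in the knockout-labelled library and 6.66 in wild type), and wild type has 4 more filled bars.

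Eif4g1 had an enriched peak in both libraries, at different places. In the knockout-labelled library it was in coding exon 14 of 32, with 20 IP reads against 3 (chr16:20681735-20681790, log2 3.68). In wild type one was in the 3′ UTR, with 9 against 1 (chr16:20692598-20692658, 5.83), and others were in coding exon 19 (8 against 2, 4.66) and exon 9 (6 against 4, 3.25). The remaining eIF4 peaks were of wild type and small: Eif4a1, the helicase that unwinds the 5′ UTR, with 7 against 2 in the 3′ UTR (4.47), its cofactors Eif4h with 5 against 1 in the 3′ UTR (4.99) and Eif4b with 6 against 4 in coding sequence (3.25). Of the eIF4E-binding proteins, which hold initiation back, Eif4ebp2 had a coding peak in wild type with 7 against 3 (3.89). Pabpc1, the poly(A)-binding protein that joins the mRNA's tail to the cap complex, had no enriched peak among 7 exonic clusters in the knockout-labelled library (0.35 to 2.26). In wild type 2 of its 8 were enriched, in coding exons 11 (9 against 2, 4.83) and 10 (8 against 4, 3.66). The knockout-labelled library had clusters at both of these places, each with 7 against 6 (1.16).

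Within eIF3, Eif3c, a core subunit, had coding peaks in both libraries, in exon 16 of 21 in the knockout-labelled library (11 against 2, 3.40) and in exon 11 in wild type (9 against 5, 3.51). Eif3d, a subunit that can bind the cap, had a coding peak in exon 14 of 15 in wild type, with 12 against 2 (5.25). The knockout-labelled cluster at that place had 7 against 4 (1.75). Eif3g had a coding peak in wild type with 7 against 4 (3.47). For eIF2 and its exchange factor eIF2B, Eif2b2, the beta subunit of eIF2B, gave the single peak of the group: 16 IP reads against at most 1 input read in the 3′ UTR in wild type (chr12:85226197-85226261, 6.66), 72 bases past the stop codon. The knockout-labelled library had no cluster on Eif2b2. Eif2ak1, the kinase that phosphorylates eIF2 when haem is short, had 6 against 1 in the 3′ UTR in wild type (5.25). The knockout-labelled library had a cluster there with the same reads, 6 against 1, which gave a log2 of 3.52 and a -log10 p of 2.1 at its depths. Eif1ad, whose product resembles eIF1A, had a 3′ UTR peak in both libraries, with 11 against 1 in the knockout-labelled library (chr19:5370374-5370440, 4.40) and 8 against 1 in wild type (chr19:5370390-5370436, 5.66). Eif1b, a close relative of the start-codon factor eIF1, had 5 against 2 in the 3′ UTR in wild type (3.99).

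Elongation factors had 2 enriched peaks among 39 exonic clusters in the knockout-labelled library (5.13%, 0.627 to 17.3, beside 3.57% over all protein-coding genes) and 1 among 20 in wild type (5%, 0.127 to 24.9, beside 27.5%). Eef1b2, a subunit of the exchange factor for eEF1A, had a 5′ UTR peak in both libraries, with 46 IP reads against 9 in the knockout-labelled library (chr1:63177126-63177204, log2 3.29) and 6 against 2 in wild type (chr1:63177134-63177200, 4.25). Eef1a1, which brings tRNAs to the ribosome, had a coding peak in the knockout-labelled library with 20 against 3 (chr9:78479642-78479744, 3.68). The 30 bases at its centre occur at 4 other places in mm10, so the reads may not all be of Eef1a1. Its form of neurons and muscle, Eef1a2, had 7 exonic clusters in the knockout-labelled library (0.02 to 0.94) and 2 in wild type (1.08 and 3.08), and Eef2 had 14 in the knockout-labelled library (-0.46 to 2.28) and 9 in wild type (0.58 to 4.66), with no enriched peak on either gene.

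Along the mRNA, member clusters lay less often in the 3′ UTR than those of protein-coding genes in general. In the transcript with the longest coding sequence, 36 of 374 clusters of the knockout-labelled library were in the 3′ UTR, 9.63% (6.83 to 13.1), beside 21.4% over all protein-coding genes. In wild type it was 23 of 181, 12.7% (8.23 to 18.5), beside 33.6%. Among clusters of 10 or more IP reads it was 4.82% in the knockout-labelled library (1.33 to 11.9, beside 21.8%), but 27.8% of 18 in wild type (9.69 to 53.5, beside 44.5%), where the interval holds the general share. The 3′ UTR makes up 40% of the summed mRNA length of the members and 40.5% of that of all protein-coding genes. For the ribosomal proteins it is only 33.5%. These sums do not weigh genes by their clusters. The 5 genes with most clusters in the knockout-labelled library differed in this. Their 3′ UTR took 3 of 5289 bases on Eif4g3, 453 of 5638 on Eif4g1 and 967 of 5125 on Eif3a. It took 3869 of 7797 on Eif5b and 4945 of 7995 on Eif4g2. The part of 3′ UTR length in the shares was not tested. The 5′ UTR held 7.49% of member clusters in the knockout-labelled library (5.03 to 10.6, beside 6.61%) and 7.73% in wild type (4.29 to 12.6, beside 5.42%). The rest of the member clusters were spread along the coding sequence. Each of 5 equal bins of it held 11.8% to 19% of the clusters in the knockout-labelled library and 9.94% to 21.5% in wild type, with the last bin lowest in both.

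**Figure D3:**
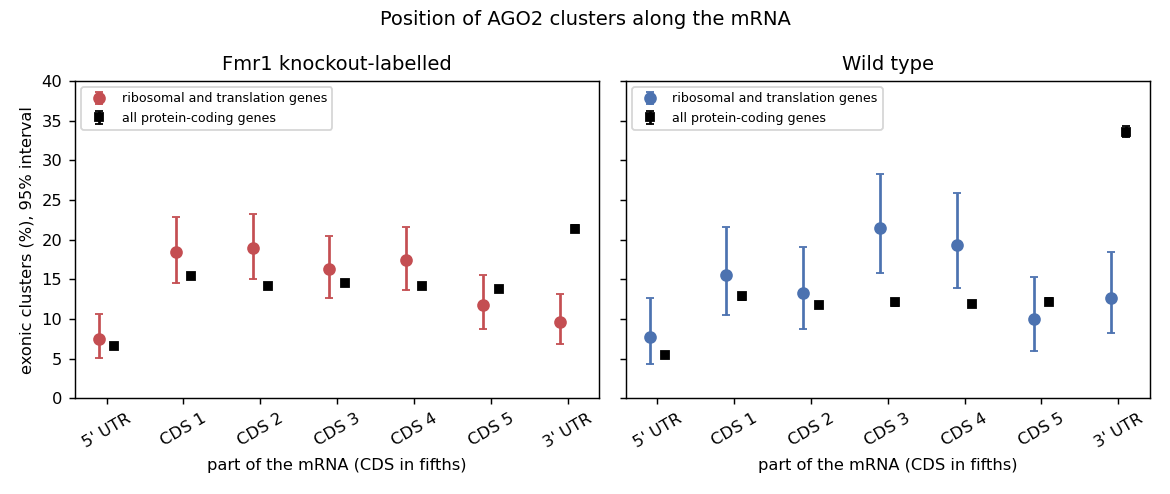
Share of exonic clusters in the 5′ UTR, in 5 equal bins of the coding sequence and in the 3′ UTR, with exact 95% intervals; knockout-labelled library on the left and wild type on the right. Coloured points are ribosomal protein and translation factor genes and black squares all protein-coding genes. The coloured 3′ UTR points lie below the black squares (9.63% beside 21.4% in the knockout-labelled library, 12.7% beside 33.6% in wild type).

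Seed matches were sought on the strand of the transcript only, in enriched peaks, for 10 seeds: TACCTC (let-7), CCAAAG (miR-9), GCTGCT (miR-15/16), GTTTAC (miR-30), TCAGGG (miR-125), ACTGTG (miR-128), ACTTGA (miR-26), CACTTT (miR-17), CAGGGT (miR-10) and ACGGGT (miR-99). The miR-125 and miR-10 matches overlap by 5 letters where both occur. In 3′ UTR peaks of the members, 2 of 4 in the knockout-labelled library (50%, 6.76 to 93.2) and 3 of 13 in wild type (23.1%, 5.04 to 53.8) held any of them. Over the enriched 3′ UTR peaks of all protein-coding genes the shares were 46% in the knockout-labelled library and 32.1% in wild type. The matched peaks were those of Eif4g2, Eif1ad and, in wild type, Eif2b2. The unmatched 3′ UTR peaks of the knockout-labelled library were the abutting Rps13 regions on the snoRNA gene Snord14a. In coding peaks it was 3 of 4 in the knockout-labelled library (75%, 19.4 to 99.4, beside 45.2% over all) and 7 of 14 in wild type (50%, 23 to 77, beside 28.8%).

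The miR-15/16 match was the most frequent in coding peaks of the set. It was singled out after its values were seen. It was present in 3 of 4 coding peaks in the knockout-labelled library, on Rpl14, Eif3c and Eef1a1 (75%, 19.4 to 99.4), and in 4 of 14 in wild type, on Rpl14 in both abutting regions, Pabpc1 and Eif4b (28.6%, 8.39 to 58.1). Among coding peaks of all protein-coding genes the shares were 11.1% in the knockout-labelled library and 6.21% in wild type. GCTGCT is also the repeat of codons seen in Rpl14 and Pabpc1 above, and a match is a description of the letters in a peak. The match in the Eif3c peak of the knockout-labelled library lay at chr7:126552191-126552220, minus strand.
Eif3c: taggtcagggtcTGCTGCTgcgcagcctgc

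The authors' deposited table for the series sets the reads of both IPs against each other within the regions called in wild type. Its log2 values are wild type over knockout-labelled, so a negative value means more reads per library total in the knockout-labelled IP. The table lists a -log10 p of 0 wherever its log2 is below 0, so the lower side was judged with the same kind of p, computed in both directions from the recovered reads. Regions were called past a -log10 p of 3 and a log2 of 1 in size. Of the 292 member regions 5 were higher in wild type by these limits (1.71%), where 3.39% of all 46862 regions were. Among the exonic ones it was 2 of 188 (1.06%), where the share over protein-coding genes was 2.88%. No exonic member region was lower in wild type by the p in both directions (0.117% over all protein-coding genes). The regions were called in wild type, so places bound in the knockout-labelled library alone have no value here.

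The exonic regions past the limits were on Rpl14 and Eif2b2. The Rpl14 coding region had 112 reads in the knockout-labelled IP and 136 in the wild-type IP (log2 1.47, -log10 p 15.8 in the authors' deposited table). The abutting region had 11 knockout-labelled and 14 wild-type reads (1.54), and a -log10 p of 1.97 that did not pass. The Eif2b2 3′ UTR region had at most 1 read in the knockout-labelled IP and 16 in the wild-type IP (5.19, 7.17). The 3 others past the limits were not exonic: Rpl39 in an intron on the snoRNA gene Snora69 (2 knockout-labelled and 13 wild-type reads, 3.89), Rpl37 in a non-coding exon (at most 1 knockout-labelled and 8 wild-type reads, 4.19) and Eif4g2 in a non-coding exon on the snoRNA gene Gm23262 (61 knockout-labelled and 56 wild-type reads, 1.06).

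Over regions with enough reads, the exonic signal of the set was close to equal between the IPs. With at least 20 reads of both IPs together, 34 exonic member regions on 13 genes had a median log2 of 0.07 (quartiles -0.48 and 0.93), and 18 were above 0. Over all protein-coding genes, the median of 2445 such regions was 0.36, and 1530 were above 0. Only regions called in wild type are listed, and the median was higher the fewer reads were asked for: 0.19 over 89 member regions of 10 or more reads and 0.97 over all 188, where all protein-coding genes had 0.66 and 1.77. Eif4g2 decided part of the value: without its 7 regions the other 27 had a median of -0.03, 13 of them above 0.

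**Figure D4:**
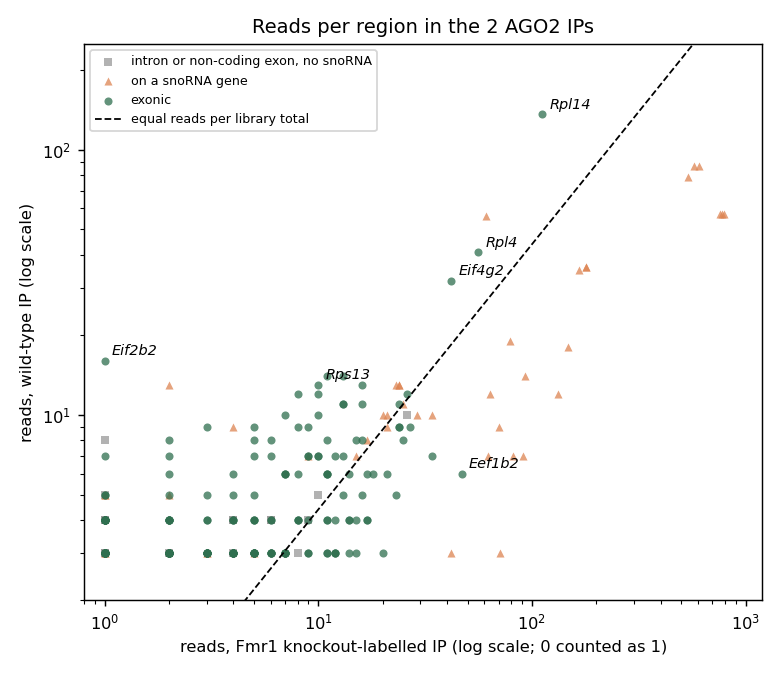
Reads of each member region in the knockout-labelled IP (horizontal) and in the wild-type IP (vertical), both on log scales, with the dashed line where reads per library total are equal. Circles are exonic regions, triangles lie on snoRNA genes and squares are other regions of introns and non-coding exons. Rpl14 (112 knockout-labelled and 136 wild-type reads) and Eif2b2 (at most 1 knockout-labelled and 16 wild-type reads) stand above the line, and most triangles with many reads stand below it.

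On Eif4g2 the 6 regions of the 3′ UTR had log2 values of -0.40 to 1.45, with 5 above 0, the 2 of the 5′ UTR had 0.28 and 0.77, and the 9 coding regions had -1.01 to 0.31, with 3 above 0. These ranges overlap, and their difference was not tested. The let-7 region had 42 reads in the knockout-labelled IP and 32 in the wild-type IP (0.80), and none of these regions passed the limits. All 5 of the member 3′ UTR regions with 20 or more reads were on Eif4g2. Rpl4 had 56 knockout-labelled and 41 wild-type reads in its exon 8 region (0.74) and -0.90 to 0.74 over its 7 exonic regions. Rps13 had 10 knockout-labelled and 13 wild-type reads in its 5′ UTR (1.57), and Eif3d had 8 knockout-labelled and 12 wild-type reads in coding exon 14 (1.77). Eif3a was above 0 in 9 of 11 regions (-1.09 to 1.77), Eif4g1 in 12 of 15 (-1.55 to 2.19), Pabpc1 in 7 of 8 (-0.69 to 1.77) and Eif4g3 in 6 of 16 (-1.55 to 2.77).

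Elongation factors had no region past the limits. Over exonic regions of all protein-coding genes the shares were 2.88% higher and 0.117% lower. With shares this low, the lack of calls among 20 exonic regions does not set elongation factors apart. The 7 exonic regions of elongation factors with 20 or more reads had a median of -0.23, with 2 above 0. All 20 of their exonic regions had a median of 0.13. The 7 such regions of 60S proteins had a median of -0.31, with 3 above 0. Of the elongation factors Eef1b2 was the lowest, with 47 reads in the knockout-labelled IP and 6 in the wild-type IP in its 5′ UTR (-1.78). Its -log10 p in both directions was 2.41. Eef1a1 was below 0 in all 3 of its regions (-1.13 to -0.23), of which 2 have copies elsewhere in mm10. Eef2 was above 0 in 4 of 9 (-0.81 to 3.19), and Eef1a2 had 16 knockout-labelled and 8 wild-type reads in its main coding region (0.19).

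The regions with most reads on these genes were not on mRNA but on the snoRNAs within them. A snoRNA gene of GENCODE lay in 39 of the 155 members. Among them were 20 of the 52 genes of 60S proteins, 10 of the 33 of 40S proteins and 4 of the 12 of the eIF4 group. The share of all protein-coding genes with one is not given here. Of the regions in introns and non-coding exons, 110 of 172 in the knockout-labelled library (64%, 56.3 to 71.1) and 64 of 104 in wild type (61.5%, 51.5 to 70.9) lay on one. Over the whole knockout-labelled library 445 regions of any kind lay on one, where 36843 regions were intronic and 3264 in non-coding exons. For wild type the numbers were 214, 20659 and 2019. Reads on the snoRNAs of the members exceeded input by little: the median log2 over input was 0.70 in the knockout-labelled library and 0.55 in wild type. For the other intronic and non-coding regions of the members it was 2.52 in the knockout-labelled library and 4.25 in wild type. Of the member regions on snoRNAs, 7 of 110 in the knockout-labelled library and 3 of 64 in wild type were enriched peaks. On snoRNA genes outside the set it was 46 of 329 in the knockout-labelled library and 13 of 149 in wild type.

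On snoRNAs the knockout-labelled IP had more reads per library total. By the p in both directions, 18 member regions were lower in wild type, where the share over all regions with reads was 0.174%. All 18 lay on snoRNA genes, 15 on those of GENCODE and the 3 of Rpl7a on one that RefSeq alone annotates, and they fell in 10 genes. They are not 18 separate measurements, since abutting regions of a snoRNA can share reads. The examples were chosen after their values were seen. On Snord83b, in an intron of Rpl3, abutting regions had 756 to 794 reads in the knockout-labelled IP and 57 each in the wild-type IP (-2.61 to -2.54). On Snord32a of Rpl13a it was 538 to 607 reads in the knockout-labelled IP and 79 to 87 in the wild-type IP (-1.61 to -1.54), and on Snord34 of the same gene 148 knockout-labelled and 18 wild-type reads (-1.85). Rpsa with Gm26448 had 132 knockout-labelled and 12 wild-type reads (-2.27), and Rps3 with Snord15b had 42 knockout-labelled and 3 wild-type reads (-2.62). Among initiation factors, Eif4g1 with Snord66 had 91 knockout-labelled and 7 wild-type reads (-2.51), and Eif4a2 with Snord2 had 82 knockout-labelled and 7 wild-type reads (-2.36). The Rpl7a regions had 167 to 180 knockout-labelled and 35 to 36 wild-type reads (-1.13 to -1.07). In each of these the knockout-labelled IP had the higher count by more than the ratio of library totals.

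Each library's own input gave a less even picture on these snoRNAs. Snord34 had 148 IP reads against 73 input reads in the knockout-labelled library (log2 1.96) and 18 against 56 in wild type (1.03). Over the Rpl7a snoRNA the ranges overlapped, 1.04 to 2.37 in the knockout-labelled library and 1.73 to 2.27 in wild type, as they did over Snord83b, 0.52 to 2.89 in the knockout-labelled library and 0.82 to 1.57 in wild type. The boundaries of the clusters differ between the libraries, so these values are set side by side only.

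The direction was not shared by every snoRNA of the set, and was not limited to it. Counting GENCODE and RefSeq snoRNAs, 70 member regions on them had a median log2 of -0.97, with 49 below 0 and 2 past the limits on the higher side. With 20 or more reads it was -1.18 over 32 regions, 23 of them below 0. On snoRNA genes outside the set, 58 regions with 20 or more reads had a median of -1.43, and 53 were below 0. Reads could be recovered for 263 of the 292 member regions, and the other 29 could not be judged on the lower side. Of those, 27 were on snoRNAs, and their log2 values in the authors' deposited table ran from -2.62 to 0.02, with 26 below 0. Reads on mouse repeats were removed by the authors before mapping, per the labels' protocols, and how that step treated snoRNAs is not given in the sources used here; its part in these values was not tested.

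**Figure D5:**
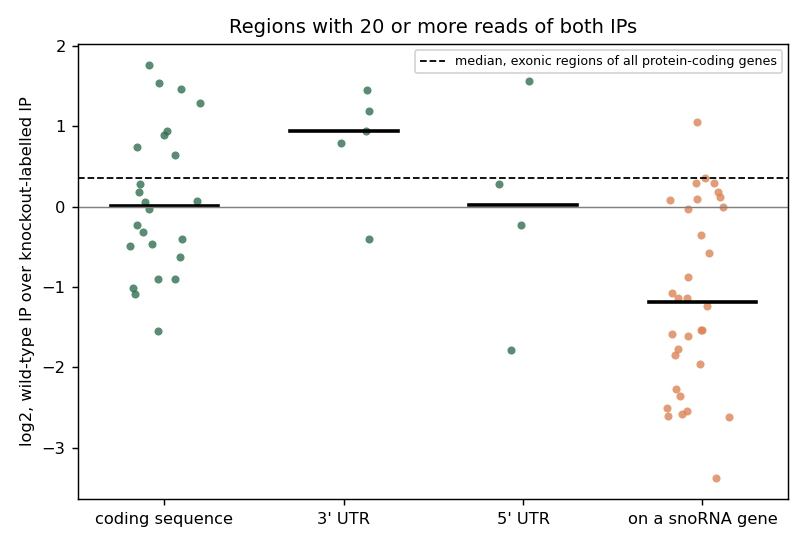
Log2 of wild type over knockout-labelled reads in the authors' deposited table for member regions with 20 or more reads of both IPs together. Each point is 1 region, the bar is the median of its class, and the dashed line is the median of exonic regions of all protein-coding genes (0.36). Medians are 0.01 for 24 coding regions, 0.95 for 5 regions of 3′ UTR, 0.03 for 4 of 5′ UTR off snoRNA genes and -1.18 for 32 on snoRNA genes.

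A list of 42 other genes of translation, which the symbol rule does not reach, held ribosomal genes of other symbols (such as Fau and Rack1), release and recycling factors, the mTOR pathway, S6 and MAPK-activated kinases and partners of Pabpc1 and FMRP. Exonic clusters were on 35 of them in the knockout-labelled library and on 29 in wild type. Enriched were 2 of 188 exonic clusters in the knockout-labelled library (1.06%, beside 3.57% over all protein-coding genes), on Rps6ka3 and Mknk2, and in wild type 18 of 104 (17.3%, beside 27.5%) on 12 genes. Rps6ka3, a kinase below the ERK pathway, had 12 IP reads against 1 at chrX:159365203-159365250 in its 3′ UTR in the knockout-labelled library (4.52) and 16 against 1 at chrX:159365201-159365266 in wild type (6.66). Wild type also had 26 against 1 in its coding sequence (7.36). Larp1, which binds the cap of ribosomal protein mRNAs, had 3 enriched peaks in wild type, the strongest with 16 against 1 in the 3′ UTR (6.66), and none in the knockout-labelled library. The 8 exonic regions of the list with 20 or more reads had a median log2 of 0.83 in the authors' deposited table, beside 0.07 for the ribosomal protein and translation factor genes. Of its 104 regions in that table, 2 were higher in wild type and none was lower by the p in both directions. Over exonic regions of all protein-coding genes the shares were 2.88% higher and 0.117% lower.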

How the data were processed

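AGO2 eCLIP of whole brain was analysed from the deposited cluster files of the 2 IP samples and 1 table of the series. Per the labels' protocols, the authors trimmed reads with cutadapt 1.15, discarded those on mouse repeats and used STAR 2.6.0c for mapping to mm10, with duplicates removed by UMI tools (version given as 5.2), and clusters called with CLIPper 1.4 and compared with the size-matched input. The authors deposited, per region, a -log10 p-value (0 to 400) and a log2 ratio. That the series table runs wild type over knockout-labelled was taken from the values: 46799 of its 46862 regions are those of the wild-type file, and wild-type reads recovered from both tables were equal in 100% of 42616 regions.

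Reads were recovered from the log2 and -log10 p (match within 1%; checked on simulated data), for 75411 of 86106 knockout-labelled and 46444 of 46860 wild-type clusters; regions listed at 0 or 400 mostly gave none. Regions took the annotation at their midpoint on their strand (GENCODE vM21), coding sequence first, then UTRs (3′ before 5′), non-coding exons and introns. The build was checked: 21496 of 21514 annotated start codons read ATG. Exact 30-base copies around the midpoint were found elsewhere in mm10 for 83 of 867 member regions. Work was done in Python 3.11.15 with pandas 2.3.3, numpy 2.4.6, scipy 1.17.1 and matplotlib 3.10.9.

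The genes described were those with an exonic region of 20 or more reads in the series table, an exonic enriched peak in both libraries, a top 5 peak by -log10 p in either library, an exonic region past the limits of the series table, or most enriched exonic peaks in their role group; other genes are named to complete small counts and were chosen after their values were seen. Members, lists and limits were chosen with earlier results of these data known. The input libraries enter only through the scores, and 1 further planned miRNA family was not analysed here. Some results are not reported here.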

Additional observations from a re-analysis of the deposited data

How the results depend on the processing

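Of 48 recomputed values 29 kept within the spread set for them, 18 moved and 1 changed sign. With limits of -log10 p 5 and log2 4, genes with an exonic enriched peak numbered 3 in the knockout-labelled library and 9 in wild type, and the enriched share of exonic clusters was 0.767% in the knockout-labelled library (beside 1.17% over all protein-coding genes) and 7.45% in wild type (beside 10.1%, which its interval holds). With the same number of peaks taken per library, the wild-type count was 8, as in the knockout-labelled library. With at least 10 IP reads the enriched share was 10.1% in the knockout-labelled library and 55.6% in wild type, and the 3′ UTR share 4.82% (4 of 83, beside 21.8%) in the knockout-labelled library and 27.8% (5 of 18, beside 44.5%) in wild type. Both wild-type intervals at this minimum hold the general share. Overlap of wild-type peaks with any cluster of the knockout-labelled library was 65.6%. In the series table, limits of 5 and 2 left 1 region higher in wild type, and leaving out snoRNA genes left 3. The authors' p gave 0 regions lower; p in both directions gave 18, 7 of them past limits of 5 and 2, 3 off GENCODE snoRNA genes, and 0 off those of RefSeq as well. The median log2 of exonic member regions was 0.19 with at least 10 reads, 0.97 with no minimum, 0.19 without regions copied elsewhere, and -0.29 after subtracting the median of all protein-coding exonic regions, which turns its sign. Stricter limits and read minima leave fewer regions by construction, and the cause of the other shifts was not tested. Alternatives for p in both directions with other limits or without snoRNA genes, and the RefSeq snoRNAs, were chosen after seeing the data, as were seed matches in coding peaks. No paired analysis was possible because each genotype had 1 IP library, and for the same reason no replicate could be left out. The low depth, with a median of 4 IP reads per cluster in either library, limits all counts of peaks.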
